A study of Mus musculus with 4 samples.

Results

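A set of 10 transcription factors that separate memory from effector states of T cells were followed in CNS-infiltrating and lymph node effector CD4 cells. They are 10 of the 23990 gene symbols measured, listed by name for their known roles with earlier results of these data known, and each was obtained by summing the values of all transcripts that carry its symbol. Tcf7, Lef1, Bach2, Satb1, Id3, Myb and Foxp1 were grouped as memory and stemness factors, and Id2, Zeb2 and Prdm1 as effector factors. The cells came from wild type mice (C57BL/6 in the labels, C57BL/6J in the Methods) in which EAE, a mouse model of multiple sclerosis, had been induced by immunization with the myelin peptide MOG in complete Freund's adjuvant, with pertussis toxin. At disease onset CD44+CD4 cells were purified by FACS from the spinal cord (CNS) or from pooled draining lymph nodes (dLN), and RNA was sequenced in 2 libraries per tissue. The Methods of the study include a stimulation of the sorted cells with PMA and ionomycin before RNA was taken, whereas the labels name fresh sorting only. The age and sex of the mice are not given in the sources used here. All groups share the genotype, the immunization and the sort, and no unimmunized or naive cells were analysed here.

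A T cell that has met antigen can keep the capacity to renew itself or move toward terminal effector function, and opposing transcription factors hold these states apart. Tcf7 and Lef1 encode the HMG-box proteins TCF1 and LEF1, Bach2 encodes a repressor that holds back effector genes, and Foxp1 encodes a factor of T-cell quiescence. Id2 and Prdm1 (Blimp-1) are tied to effector differentiation, and Blimp-1 and Bach2 are known to repress each other's genes in lymphocytes.

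Values are FPKM, fragments divided by transcript length in kilobases and by the library total, so that they compare genes per length. Depth, estimated from the steps between low FPKM values, was 18.6 M to 21.9 M fragments per library. Log2 ratios are CNS over dLN of FPKM + 1, with the standard error (SE) and the Benjamini-Hochberg adjusted p over 10634 genes from limma, and a gene is called when that p is under 0.05. Nothing in the labels ties the 2 libraries of a tissue to separate groups of mice, so the p-values measure only the spread between these libraries. With 2 libraries a side, the smallest two-sided p that exact permutation allows is 0.333. In bulk RNA, fewer cells of a type and less RNA per cell cannot be told apart. CD4 T-cell markers were high in every library, with a summed level of 2245 and 2259 FPKM in CNS and 811 and 746 FPKM in dLN over 6 genes. Of these, Cd4, Cd3d, Cd3e and Cd3g were called higher in CNS, whereas Cd5 and the sort marker Cd44 were called lower. Markers of B cells, of plasma cells and of CD8 T or NK cells summed to at most 10.8 FPKM in any library. The 14 microglia and macrophage markers summed to 25.5 and 185 FPKM in CNS and to 4.38 and 3.93 FPKM in dLN, where 8 and 10 of them were at 0. The 4 neutrophil markers summed to 197 FPKM in CNS replicate 2 and to at most 0.767 FPKM elsewhere. Y-linked transcripts were read in CNS alone and Xist almost solely in dLN, so tissue and sex of the mice cannot be told apart.

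The memory factors did not move as one group. Tcf7, Lef1 and Id3 were higher in CNS, Bach2, Foxp1 and Myb were higher in dLN, and Satb1 was not called. The effector factors were also divided, with Id2 and Prdm1 higher in CNS and Zeb2 higher in dLN. In all, 9 of the 10 factors were called, where 74.9% of all tested genes were called. Of these, 5 were higher in CNS (37.8% of all genes) and 4 were lower (37.2% of all genes). A call together with a difference of at least 1 on the log2 scale was reached by 8 factors and by 39.2% of all genes. The libraries of the tissues did not overlap for 9 factors and for 89.4% of all genes. The median log2 ratio was -0.13 over the 7 memory factors, 0.64 over the 3 effector factors and 0.05 over all genes tested.

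**Figure D1:**
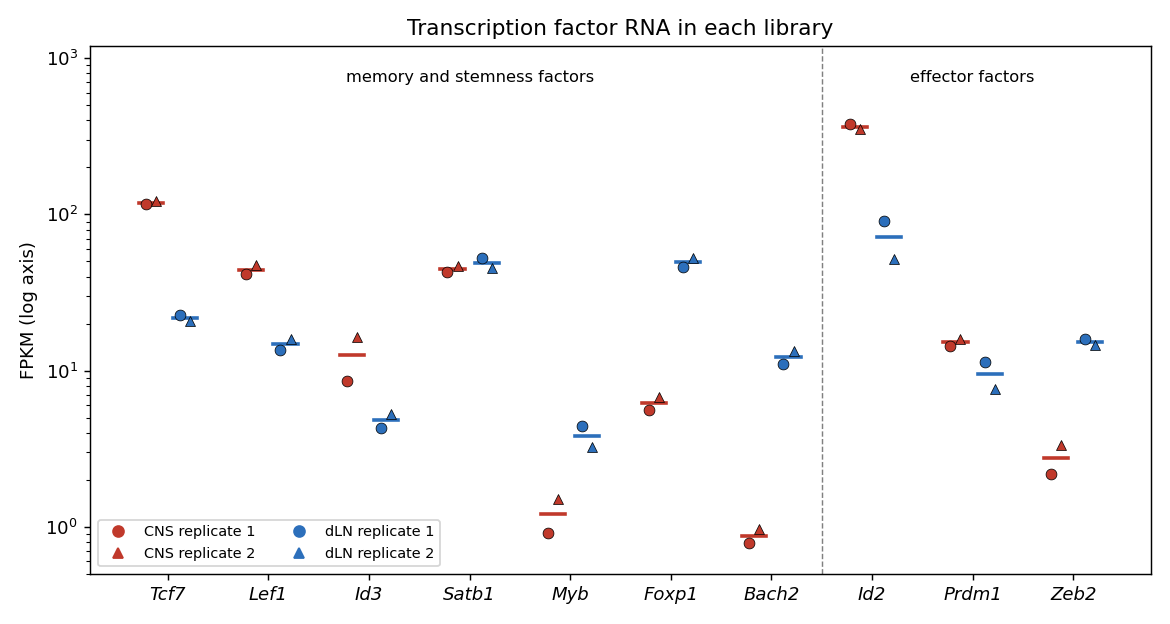
FPKM of the 10 factors in each library on a log axis, with circles for replicate 1, triangles for replicate 2 and a horizontal line at the mean of each tissue (CNS red, dLN blue). Tcf7, Lef1, Id3, Id2 and Prdm1 lie higher in CNS, Myb, Foxp1, Bach2 and Zeb2 lie higher in dLN, and the Satb1 libraries overlap.

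Tcf7 (Entrez gene 21414, mm10 chromosome 11, 52252604 to 52282571, minus strand) reached 116 and 122 FPKM in CNS, compared with 22.5 and 20.9 FPKM in dLN. Both CNS libraries were far above both dLN libraries, and the replicates lay close together. The mean of 119 ± 4.47 FPKM (SD, n = 2) for CNS was 5.48-fold that for dLN, 21.7 ± 1.19 FPKM (SD, n = 2) (log2 ratio 2.40, SE 0.09, limma adjusted p = 8.95e-05). Only 4.75% of all tested genes had a higher log2 ratio. TCF1 exists in long forms that bind beta-catenin at their N-terminus and short forms that lack this stretch. The deposited table lists Tcf7 under 1 transcript, from a start at 52282571, with a coding length of 909 bases. Another annotated start, 443 bases upstream at 52283014, has no listed transcript, so the forms were not separated.

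Lef1 (Entrez gene 16842, chromosome 3, 131110297 to 131224357, plus strand), the close relative of Tcf7, was at 41.3 and 47.3 FPKM in CNS and at 13.6 and 16.0 FPKM in dLN. It followed the same order of tissues without overlap. The difference in means was 3.0-fold, with a log2 ratio of 1.52 (SE 0.12, limma adjusted p = 0.000386). Lef1 RNA was read from more than one transcription start. The upstream start, at 131110297, gives transcripts whose coding sequence begins at 131111472, within a first exon for the N-terminus to which beta-catenin binds. The downstream start, at 131112791, gives a transcript with a coding length of 993 instead of 1191 or 1152 bases, whose coding sequence begins at 131112812 and therefore lacks that stretch. The upstream transcripts were at 13.3 and 18.1 FPKM in CNS and at 1.41 and 1.64 FPKM in dLN, a 10.3-fold difference in means. The downstream transcript was at 28 and 29.2 FPKM in CNS and at 12.2 and 14.3 FPKM in dLN, a 2.16-fold difference. The upstream start therefore made up 32.3% and 38.2% of Lef1 FPKM in CNS and 10.4% and 10.3% in dLN. These values are descriptions, because the reads of overlapping transcripts were divided among them by estimation. Only the downstream transcript, the highest in every library, was fitted (log2 ratio 1.06, limma adjusted p = 0.000914). The upstream transcripts and the shares carry no test. The 250 bases before each start are shown because the Lef1 tissues differ most at one of them. They are RefSeq sequence of build GRCm38.p6 on the plus strand, chr3:131110047-131110296 before the upstream start and chr3:131112541-131112790 before the downstream start, the latter in an intron of the longer transcripts. Capitals mark a match to CAGCTG, the E-box that E proteins bind.
Lef1 upstream start: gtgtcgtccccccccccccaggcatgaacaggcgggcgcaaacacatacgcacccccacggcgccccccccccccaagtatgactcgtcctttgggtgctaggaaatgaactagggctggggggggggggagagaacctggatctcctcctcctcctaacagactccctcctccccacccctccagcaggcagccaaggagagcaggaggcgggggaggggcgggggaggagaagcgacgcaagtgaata
Lef1 downstream start: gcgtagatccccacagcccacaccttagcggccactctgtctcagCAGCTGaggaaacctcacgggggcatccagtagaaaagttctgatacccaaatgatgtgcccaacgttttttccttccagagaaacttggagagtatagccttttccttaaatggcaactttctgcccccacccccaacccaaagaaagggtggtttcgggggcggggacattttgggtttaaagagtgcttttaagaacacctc
Of the 7 motifs searched, all on both strands, none matched the upstream window. The E-box letters in the downstream window occur in 13.0% of all 32851 promoter windows of this length.

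Id3 (Entrez gene 15903, chromosome 4, 136143822 to 136145392, plus strand) encodes an inhibitor of E proteins that is typical of memory and follicular T cells. It was at 8.57 and 16.4 FPKM in CNS and at 4.30 and 5.30 FPKM in dLN. CNS was above dLN without overlap, but the CNS replicates stood far apart. The means were 12.5 ± 5.54 FPKM (SD, n = 2) and 4.8 ± 0.708 FPKM (SD, n = 2), with a log2 ratio of 1.16 (SE 0.30, limma adjusted p = 0.0198). The estimate rests on 143 and 269 fragments in CNS and 61 and 90 in dLN. The CNS library with more Id3 was the one with more myeloid and neutrophil transcripts, whose part in Id3 was not tested. Without this library the log2 ratio was 0.73 (limma adjusted p = 0.0328). Without dLN replicate 1 the call was lost (log2 ratio 1.03, limma adjusted p = 0.0915), as it was without the filter on low genes (limma adjusted p = 0.0654).

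Satb1 (Entrez gene 20230, chromosome 17, 51736187 to 51833290, minus strand) encodes a chromatin organizer of developing and naive T cells. It was at 42.7 and 46.6 FPKM in CNS and at 52.3 and 45.6 FPKM in dLN. The libraries overlapped, and the log2 ratio of -0.13 (SE 0.11) was not called (limma adjusted p = 0.315). The highest transcript alone gave a log2 ratio of -0.63 (limma adjusted p = 0.0104) and a common sum of FPKM gave -0.32 (limma adjusted p = 0.0337). The starts of Satb1 differed in direction. The transcript of the second start, at 51832647, was at 20.1 and 25.0 FPKM in CNS and at 37.2 and 33.5 FPKM in dLN. It made up 47.1% and 53.7% of Satb1 FPKM in CNS and 71.1% and 73.4% in dLN. The first start, at 51833290, was at 4.32 and 3.86 FPKM in CNS and at 1.91 and 1.84 FPKM in dLN. The last start, at 51812054, was at 11.3 and 8.18 FPKM in CNS and at 5.90 and 3.68 FPKM in dLN. Both of these starts were therefore higher in CNS while the main start was higher in dLN, and the third, at 51826588, overlapped between tissues (6.96 and 9.50 against 7.31 and 6.64 FPKM). The transcripts share the coding length of 2292 bases and the same first coding base. The second start is the highest transcript in every library, so the fit of the highest transcript above is a fit of it. The values of the other starts and the shares carry no test.

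Bach2 (Entrez gene 12014, chromosome 4, 32417435 to 32586108, plus strand) was at 0.786 and 0.960 FPKM in CNS and at 11.1 and 13.2 FPKM in dLN. It was nearly absent from both CNS libraries and moderate in both dLN libraries. The mean was 13.9-fold higher in dLN (0.873 ± 0.123 against 12.2 ± 1.53 FPKM, SD, n = 2 each), and the log2 ratio of -2.81 (SE 0.13, limma adjusted p = 0.000106) understates this because of the added 1 FPKM. The values correspond to 136 and 172 fragments in CNS and 1707 and 2412 in dLN. Only 2.05% of all tested genes had a lower log2 ratio. The antisense gene Bach2os was at 0.127 and 0.126 FPKM in CNS and at 2.20 and 2.21 FPKM in dLN, and without strand information reads in the overlap of the genes cannot be told apart. The annotation also places genes on the opposite strand of Tcf7, Lef1, Satb1 and Myb, for which no values were used here. The window before the start of the listed Bach2 transcript is shown because it matches the letters searched for Blimp-1, the product of Prdm1. It is the plus strand of chr4:32417185-32417434, in an intron of 3 other annotated transcripts. Capitals mark a match on the opposite strand to AGNGAAAG, which occurs in 7.30% of all windows.
Bach2: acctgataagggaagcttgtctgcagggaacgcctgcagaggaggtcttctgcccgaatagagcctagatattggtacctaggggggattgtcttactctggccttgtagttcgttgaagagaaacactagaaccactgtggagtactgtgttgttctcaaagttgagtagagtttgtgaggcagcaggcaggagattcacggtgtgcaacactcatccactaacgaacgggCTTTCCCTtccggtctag
Of the 23 windows of the 10 factors, 3 held this match, and those besides Bach2 were overlapping windows before Zeb2. The Bach2 letters, TGANTCA, matched in 2 of the 23, before Prdm1 and Zeb2 (6.75% of all windows). A match of letters is a description and does not show binding in these cells.

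Foxp1 (Entrez gene 108655, chromosome 6, 98925342 to 99435345, minus strand) was at 5.60 and 6.77 FPKM in CNS and at 46.0 and 52.5 FPKM in dLN. Both CNS libraries were far below both dLN libraries. The mean was 7.96-fold higher in dLN, with a log2 ratio of -2.81 (SE 0.13, limma adjusted p = 9.94e-05). Most of this lay in a transcript from a start inside the gene, at 99028298, whose coding length of 1728 bases is shorter than the 2115 and 2019 bases of the transcripts from upstream starts and begins at 99016647 instead of 99163018. This transcript was at 3.16 and 3.28 FPKM in CNS and at 37.9 and 43.7 FPKM in dLN, 12.7-fold higher in dLN. The upstream starts together were at 2.44 and 3.49 FPKM in CNS and at 8.07 and 8.80 FPKM in dLN, 2.84-fold higher in dLN. The share of the downstream start was 56.4% and 48.4% in CNS against 82.5% and 83.3% in dLN. For Foxp1 the shorter coding form had the larger fold in favour of dLN, whereas for Lef1 the longer coding form had the larger fold in favour of CNS. The transcript values of both genes are estimates, because the reads of overlapping transcripts were divided among them. For Foxp1 only the downstream transcript, the highest in every library, was fitted (log2 ratio -3.31, limma adjusted p = 8.65e-05). The difference in fold between the forms was not tested for either gene. The window before the downstream start is shown because most Foxp1 RNA of dLN was assigned to it. It is the minus strand of chr6:99028299-99028548, and capitals mark a match on the opposite strand to CAGGTG, the E-box of Zeb factors, found in 17.2% of all windows.
Foxp1 downstream start: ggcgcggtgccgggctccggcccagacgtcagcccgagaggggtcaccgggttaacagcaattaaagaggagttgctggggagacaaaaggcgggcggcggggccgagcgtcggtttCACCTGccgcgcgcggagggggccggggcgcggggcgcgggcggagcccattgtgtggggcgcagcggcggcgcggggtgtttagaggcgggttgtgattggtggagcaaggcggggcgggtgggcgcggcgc

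**Figure D2:**
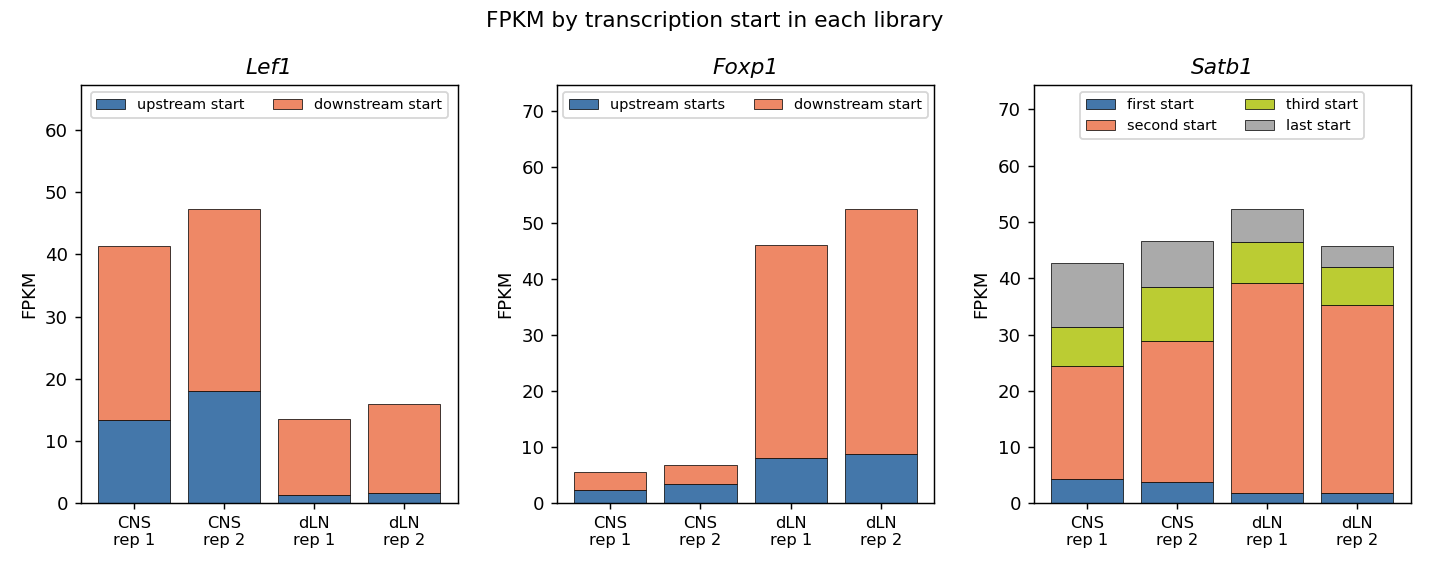
Stacked FPKM by transcription start for Lef1, Foxp1 and Satb1 in each library, with starts ordered along the direction of transcription and separate vertical axes. The Lef1 upstream start shrinks to 1.41 and 1.64 FPKM in dLN, and the Foxp1 downstream start shrinks to 3.16 and 3.28 FPKM in CNS.

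Myb (Entrez gene 17863, chromosome 10, 21124930 to 21160984, minus strand), which encodes a factor of progenitor and stem-like T cells, had the lowest mean of the memory factors in dLN, with libraries that overlapped those of Id3. It was at 0.906 and 1.49 FPKM in CNS and at 4.4 and 3.23 FPKM in dLN. CNS was lower without overlap, and the spread inside each tissue was wide for so low a gene. The mean was 3.18-fold higher in dLN, with a log2 ratio of -1.13 (SE 0.20, limma adjusted p = 0.00535), on 63 and 106 fragments in CNS and 267 and 233 in dLN.

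Id2 (Entrez gene 15902, chromosome 12, 25093799 to 25096092, minus strand) encodes the E-protein inhibitor of effector cells and had the highest mean of the 10 factors in both tissues, although in dLN its libraries overlapped with those of Foxp1. It was at 378 and 350 FPKM in CNS and at 91.0 and 51.6 FPKM in dLN. CNS lay well above dLN, and the dLN replicates differed more than those of CNS. The means of 364 ± 19.9 FPKM (SD, n = 2) and 71.3 ± 27.9 FPKM (SD, n = 2) differed 5.11-fold, with a log2 ratio of 2.39 (SE 0.27, limma adjusted p = 0.00113).

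Prdm1 (Entrez gene 12142, chromosome 10, 44437175 to 44458687, minus strand) encodes the repressor Blimp-1. It was at 14.4 and 15.9 FPKM in CNS and at 11.4 and 7.64 FPKM in dLN. CNS was above dLN by a small margin, 1.59-fold in the means, with a log2 ratio of 0.64 (SE 0.19, limma adjusted p = 0.0303). This call was the least secure of the 9, since it held in 1 of the 4 fits that left out a library, where the log2 ratio ranged from 0.38 to 0.90. The adjusted p was 0.138 without CNS replicate 1, 0.151 without CNS replicate 2 and 0.0731 without dLN replicate 2. It was also lost with a common sum of FPKM (log2 ratio 0.46, limma adjusted p = 0.0719) and without the filter on low genes (limma adjusted p = 0.0808).

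Zeb2 (Entrez gene 24136, chromosome 2, 44983512 to 45113279, minus strand) encodes a zinc-finger E-box repressor of terminal effector T cells that myeloid cells also express. It was at 2.17 and 3.31 FPKM in CNS and at 16.0 and 14.5 FPKM in dLN. The CNS values were lower without overlap, opposite in direction to Id2 and Prdm1. The mean was 5.57-fold higher in dLN, with a log2 ratio of -2.14 (SE 0.17, limma adjusted p = 0.000397). The higher CNS library was again the one with more myeloid transcripts, and their part in its Zeb2 was not tested. One transcript held 90.8% to 99.4% of Zeb2 FPKM in every library. The antisense gene Zeb2os was between 0.125 and 0.650 FPKM.

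**Figure D3:**
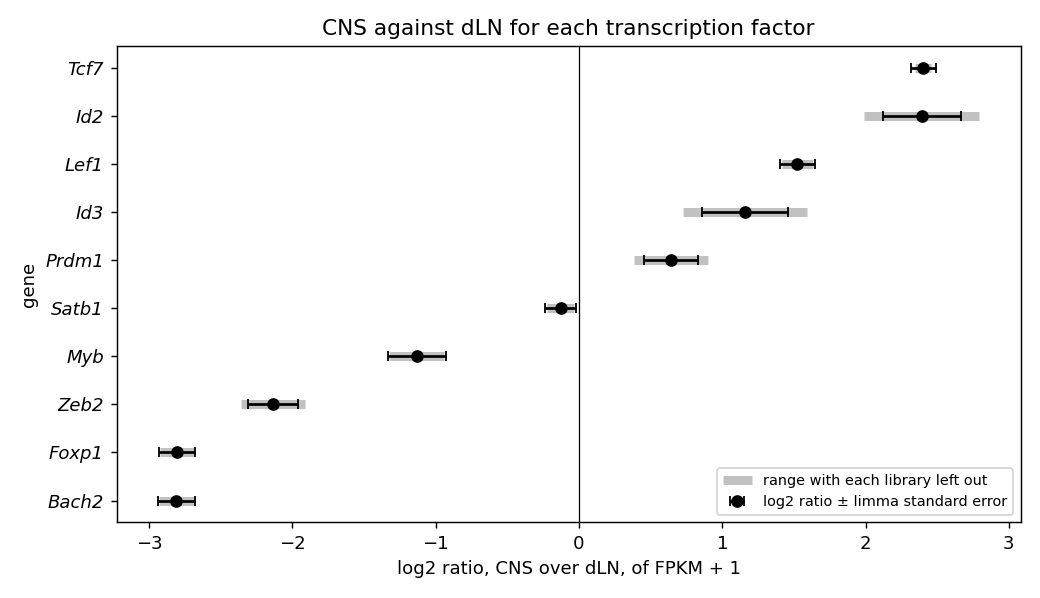
Log2 ratio, CNS over dLN, of FPKM + 1 for each factor with the limma standard error (black) and the range of the estimate with each library left out in turn (grey). Bach2, Foxp1, Zeb2 and Myb lie left of 0, Prdm1, Id3, Lef1, Id2 and Tcf7 lie right of 0, and Satb1 lies at -0.13.

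The order of levels changed between tissues. In CNS it ran from Id2 through Tcf7, Satb1, Lef1, Prdm1, Id3, Foxp1, Zeb2 and Myb to Bach2. Neighbours whose libraries overlapped there were Satb1 with Lef1, Prdm1 with Id3 and Myb with Bach2. In dLN it ran from Id2 through Foxp1, Satb1, Tcf7, Zeb2, Lef1, Bach2 and Prdm1 to Id3 and Myb. Overlapping neighbours there were Id2, Foxp1 and Satb1, then Zeb2 with Lef1, Bach2 with Prdm1 and Id3 with Myb. Among all tested genes, Bach2 stood at percentile 4.02 of the levels in CNS and 54.7 in dLN, Foxp1 at 36.8 and 84.7, and Tcf7 at 94.2 and 69.0.

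Ratios of partner genes inside a library do not depend on how libraries are scaled to each other, and 6 pairs were compared. Prdm1 over Bach2, the pair of opposing repressors, was 18.4 and 16.5 in CNS and 1.03 and 0.577 in dLN. Blimp-1 RNA therefore exceeded Bach2 RNA by more than an order of magnitude in each CNS library, while in dLN the ratio was near or below 1. The difference between the tissues was 4.5 on the log2 scale. Bach2 over its relative Bach1 was 0.165 and 0.178 in CNS and 0.917 and 0.989 in dLN (log2 difference -2.47). Zeb2 over Zeb1 was 0.273 and 0.443 in CNS and 1.55 and 1.32 in dLN (log2 difference -2.04), so Zeb1 was the more abundant of the pair in CNS and Zeb2 in dLN.

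Tcf7 over Lef1 was 2.80 and 2.58 in CNS and 1.66 and 1.31 in dLN (log2 difference 0.87). Id2 over Id3 was 44.1 and 21.3 in CNS and 21.2 and 9.73 in dLN (log2 difference 1.10), and the lowest CNS ratio nearly met the highest dLN ratio. Tcf7 over Id2, a ratio of a memory to an effector factor, was 0.306 and 0.349 in CNS and 0.248 and 0.404 in dLN. These overlapped (log2 difference 0.05, exact permutation p = 1), with log2 ratios of 2.40 for Tcf7 and 2.39 for Id2. For the other 5 pairs the two-sided exact permutation test gave p = 0.333, the smallest that 2 against 2 allows (0.4 after Benjamini-Hochberg adjustment over 6 pairs).

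**Figure D4:**
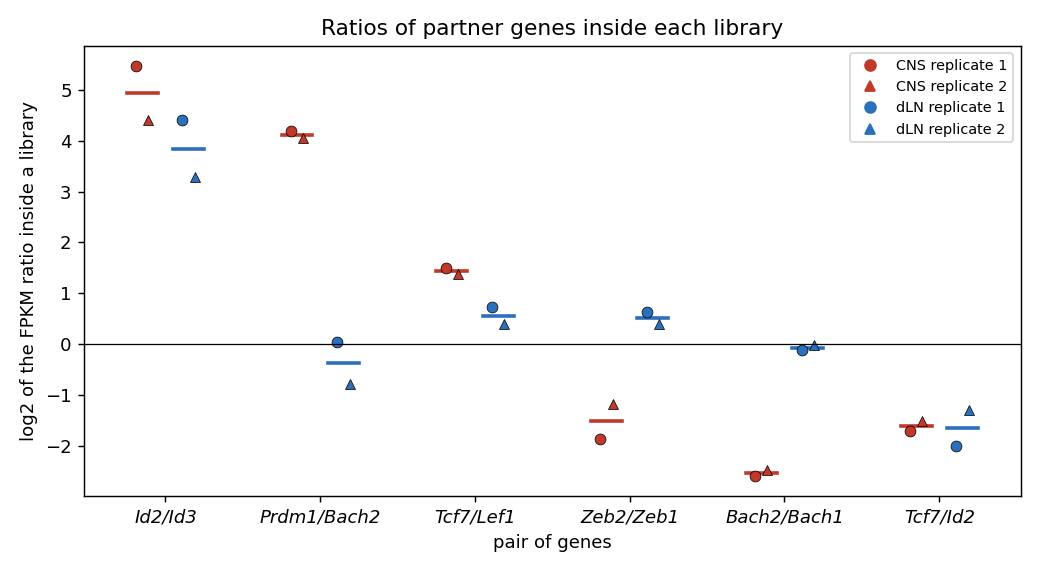
Log2 of the FPKM ratio of 6 gene pairs in each library, with circles for replicate 1, triangles for replicate 2 and a line at the mean of each tissue (CNS red, dLN blue). Prdm1/Bach2 shows the widest gap between tissues (4.5 on the log2 scale), and the Tcf7/Id2 libraries overlap.

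Genes that work with these factors were described next by their counts, as the lists were not independent of earlier results. The E proteins, transcriptional activators that Id2 and Id3 hold inactive, were called higher in CNS in 3 of 3 cases (median log2 ratio 0.68 against 0.05 for all genes, of which 37.8% were called higher). Tcf3, which encodes E2A, was at 27.5 and 31.7 FPKM in CNS and at 14.6 and 14.5 FPKM in dLN (log2 ratio 0.97, limma adjusted p = 0.000879). Tcf12, which encodes HEB, had a log2 ratio of 0.68. Tcf4, with means of 1.24 FPKM (CNS) and 0.497 FPKM (dLN), had one of 0.57 (limma adjusted p = 0.0478). Tcf4 also marks plasmacytoid dendritic cells and was highest in CNS replicate 2, at 1.56 FPKM against 0.927 FPKM in replicate 1. The 4 markers of these cells summed to 166 and 208 FPKM in CNS and to 40.1 and 38 FPKM in dLN, mostly from Bst2, while the defining Siglech was at 0.0852 and 5.10 FPKM in CNS and at 0 in dLN. Their part in Tcf4 was not tested. Id2 and the E proteins Tcf3 and Tcf12 were thus higher in the same tissue.

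Among the 12 closest relatives of the factors, 6 were tested, 4 were called lower in CNS and none was called higher (median log2 ratio -0.51), beside 37.2% lower and 37.8% higher among all genes. Foxp3, the factor of regulatory T cells, was at 24.7 and 35.9 FPKM in CNS and at 81.6 and 78.2 FPKM in dLN (log2 ratio -1.39, limma adjusted p = 0.00194). Bach1 (-1.18), Foxp4 (-0.61) and Zeb1 (-0.42) were also lower in CNS. Id1 was at 1.40 and 4.55 FPKM in CNS and at 0.506 and 0.846 FPKM in dLN (limma adjusted p = 0.0591), again highest in the CNS library with more myeloid transcripts.

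Of 13 tested corepressors and beta-catenin pathway genes of Tcf7 and Lef1, 3 were called higher and 4 lower (median log2 ratio -0.02), a smaller called share than the 74.9% of all genes. Aes, a short Groucho family member, was at 361 and 446 FPKM in CNS and at 29.1 and 19.9 FPKM in dLN (log2 ratio 4.0, limma adjusted p = 0.000131). The log2 ratio of Tcf7 itself was 2.40. Bcl9 and Bcl9l, which encode adaptors of beta-catenin, went in opposite directions, at log2 ratios of -2.32 and 2.12. Ctnnb1, which encodes beta-catenin, was lower in CNS (42.3 and 43.5 against 76.6 and 79.1 FPKM, log2 ratio -0.84), as was Apc of the destruction complex (-0.47), while the kinase gene Gsk3b was higher (0.80).

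Bach factors bind DNA together with small Maf proteins. A list of 6 genes held the small Maf genes Maff, Mafg and Mafk, the relative Bach1, Nfe2l2 and Hmox1. Of these, 4 were called lower and 1 higher in CNS (median log2 ratio -1.37), against 37.2% and 37.8% of all genes. Bach1 (-1.18) is one of the lower genes and was also counted among the relatives. Mafg was at 8.27 and 11 FPKM in CNS and at 38.8 and 42.5 FPKM in dLN (log2 ratio -1.98, limma adjusted p = 0.000328). Mafk was lower as well (-1.57), and so was Hmox1 (-1.93), which encodes heme oxygenase and is a classical target of repression by Bach1. Hmox1 was at 5.10 and 12.6 FPKM in CNS and at 31.7 and 35.8 FPKM in dLN. Its higher CNS library was the one with more myeloid transcripts, whose part in Hmox1 was not tested. Nfe2l2, which encodes the activator NRF2, was higher in CNS (0.86), and Maff was not called (-0.66, limma adjusted p = 0.0614).

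Genes of naive and memory T cells were mostly higher in CNS, with 12 of 20 called higher and 6 lower (median log2 ratio 0.96), where 37.8% of all genes were higher and 37.2% lower. Klf2, a factor of quiescence and trafficking, was at 179 and 216 FPKM in CNS and at 2.52 and 2.28 FPKM in dLN (log2 ratio 5.86, limma adjusted p = 8.12e-05). S1pr1, its target for tissue egress, had a log2 ratio of 4.97 and Il7r, the survival receptor, one of 3.82. Bcl2 (2.24) and Bcl11b (1.53) were higher too, whereas the costimulatory receptor gene Cd27 was lower (-1.69). The higher Tcf7 and Lef1 therefore stood beside other genes of this list, and the lower Bach2, Foxp1 and Myb stood apart from most of it.

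Genes of terminal effector T cells were also mostly higher in CNS, with 15 of 17 tested called higher and 1 lower (median log2 ratio 2.38), where 37.8% and 37.2% of all genes were. Cx3cr1, at 5.54 and 4.03 FPKM in CNS, is also counted among the microglia and macrophage markers. The chemokine gene Ccl5 had a log2 ratio of 7.55, the granule protease gene Ctsw one of 6.67, Gzma one of 5.85, the granule membrane gene Nkg7 one of 4.93 and the NK receptor gene Klrd1 one of 4.67. Gzmk was at 102 and 61.9 FPKM in CNS, with 0 and 0.149 FPKM in dLN. Among 31 other T-cell transcription factors 10 were called higher and 13 lower (median log2 ratio -0.11), close to the 37.8% and 37.2% of all genes. Klf6 (3.17) and Bhlhe40 (2.82) were higher in CNS, and Zbtb32 (-4.45), Irf4 (-3.31), Ikzf2 (-2.85) and Stat5a (-2.84) were lower.

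Genes that PMA and ionomycin induce moved with the tissues as well. Of 25, 16 were called lower and 7 higher in CNS (median log2 ratio -1.57, with 37.2% lower and 37.8% higher among all genes), and Il2 was called lower, at 18.2 and 38.8 FPKM in CNS and 5363 and 6176 FPKM in dLN. Il4 was listed at 0 and 0.225 FPKM in CNS, against 266 and 273 FPKM in dLN. Il22 (-5.71), Il3 (-5.46), Egr2 (-4.19) and Myc (-3.95) were lower too. Genes were named by the size of their log2 ratio, and none of the 7 called higher is among them. The list shares Ifng with the terminal effector genes and Irf4 with the other T-cell factors. The part of this difference in the values of the 10 factors was not tested.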

How the data were processed

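FPKM values per RefSeq transcript (mouse build mm10, 33819 transcripts in 1 table per tissue) were deposited by the authors. The aligner and the program that computed FPKM are not given in the sources used here. The kit named in the labels, TruSeq RNA V2, does not mark strand. The CNS header holds both library names in a single cell, and the columns were taken in that order. FPKM was summed by gene symbol, leaving out 565 transcripts with none. The 10634 genes whose mean reached 1 FPKM in either tissue were tested on log2(FPKM + 1) with limma 3.58.1 (eBayes with trend, R 4.3.3) for the difference between tissues, at a Benjamini-Hochberg adjusted p of 0.05. The fit was tested on simulated data. Pair ratios were compared by exact permutation (scipy 1.17.1).

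Depth was estimated from low FPKM values, of which 91.0% to 93.2% per library were whole multiples of 1 fragment (tolerance 0.05). Fragment numbers of genes follow from it and are estimates, and depth limits the low genes most. Promoter windows came from RefSeq (GRCm38.p6), with motifs for TCF/LEF (CTTTGAA), Bach2 (TGANTCA), E proteins (CAGCTG), Zeb factors (CAGGTG), Blimp-1 (AGNGAAAG), forkhead factors (GTAAACA) and Myb (CAACNG). The 10 factors and all lists were chosen with earlier results of these data known. From each companion list at most 6 tested genes that reached a mean of 5 FPKM in either tissue were named, by size of log2 ratio, and all tested E proteins and relatives could be. The alternatives covered 2 pseudocounts, the highest transcript per gene, 3 scalings, 2 filters, eBayes without trend, a replicate block and leaving out each library.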

Additional observations from a re-analysis of the deposited data

How the results depend on the processing

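Tcf7, Lef1, Bach2, Foxp1, Id2 and Zeb2 kept their direction and call under all 14 alternatives, and Myb under the 13 that tested it, since it did not reach a mean of 5 FPKM. Of the 10 factors, 7 to 10 were called across the alternatives. For Satb1 the log2 ratio was -0.63 with the highest transcript, -0.32 when all libraries were given one sum and 0.0040, not called, when they were given one upper quartile. The median over all genes moved by -0.18 and 0.12 under these scalings. Without a filter, which raised the genes tested to 16782, Id3 (1.16) and Prdm1 (0.64) were no longer called. Prdm1 was also lost with one sum (0.46). The cause of these changes was not tested. Leaving out each library in turn gave log2 ratios of 0.73 to 1.59 for Id3, 0.38 to 0.90 for Prdm1 and -0.31 to 0.40 for the ratio of Tcf7 to Id2. In such a fit the lone library is assumed to vary like the other tissue. The ratio of Prdm1 to Bach2 differed by 3.45 and that of Bach2 to Bach1 by -1.63 with 1 FPKM added, because the added value weighs most on low genes. The ratio of Tcf7 to Lef1 differed by 1.34 with the highest transcript. Of all called genes 50.4% were higher in CNS, against 42.9% with one sum and 55.7% with one upper quartile.

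Replicate numbers 1 and 2 occur in each tissue, but the difference between replicates in CNS correlated at only 0.0933 with that in dLN over genes, so no pairing was assumed. With the replicate block 7828 genes were called and 9 of the 10 factors, and no factor changed its call.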
